A study of Mus musculus with 30 samples.

Results

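Muscle pre-mRNA is spliced differently in the embryo and in the adult, and a small set of RNA-binding proteins sets much of that difference. The 10 genes described here encode such proteins: Rbm20 and Rbm24 (RNA-binding motif), Mbnl1 and Mbnl2 (muscleblind-like), Celf1 and Celf2 (CUGBP and Elav-like), Rbfox1 and Rbfox2 (RNA-binding Fox), and Ptbp1 and Ptbp2 (polypyrimidine tract binding). They were chosen by name, as the rows of these genes in the deposited table of 48820 genes. The hearts came from untreated wild-type (WT) mice at 10 ages: embryonic day 10.5 (E10.5) and E12.5, then E14.5, E16.5 and, shortly before birth, E18.5, postnatal day 1 (P1), and postnatal weeks 1, 2, 4 and 8 (1W, 2W, 4W and 8W). Each age had 3 libraries of poly(A)-selected RNA, 30 in all, with 23164934 to 50519452 counts per library. RNA came from heart tissue, so fewer cells of a type and less RNA per cell cannot be told apart. The sources used here give neither the strain nor whether libraries of an age came from separate or pooled animals, and p-values therefore measure the spread between these libraries alone.

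In general, MBNL proteins favour adult splice patterns, CELF proteins favour embryonic ones and act on many of the same exons, and PTB proteins repress muscle and neuronal exons. RBM20 keeps exons of titin out of the adult transcript, RBM24 promotes inclusion of muscle exons, and RBFOX proteins act through the sequence UGCAUG near an exon. The table gives counts per gene, not per exon or isoform. It therefore shows the level of each regulator's transcripts, not what was spliced, and not the proteins.

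Levels are CPM (a gene's share of the library's counts on a fixed scale, adjusted with TMM factors, the trimmed mean of M values), given per library or as mean ± SD (n = 3). Changes are log2(later/earlier) ± SE, and genes are said to rise or fall at an adjusted p under 0.05 in edgeR's quasi-likelihood test, adjusted over all 19280 genes tested. All 10 members passed the filter on low counts, with between 9 (Rbfox1 in an E10.5 library) and 23178 counts (Rbm20 in a 1W library) in a library.

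The libraries carried the heart's own transcripts at every age, with none of 8 cardiomyocyte markers under 1 CPM. Their summed level was 11865 to 14082 CPM at E10.5, 47032 to 50280 at E18.5, then 57248 to 63136 at P1, and 111831 to 117482 at 8W. Of the 8 markers, 7 rose and none fell in E18.5 against E10.5, 5 rose and 1 fell in P1 against E18.5, and 6 rose and 1 fell in 8W against P1. Their part in the rises of Rbm20, Mbnl1, Mbnl2 and Rbfox1 was not tested. Neuron markers summed to between 3.97 and 16.8 CPM over 6 genes, and Snap25, Th and Rbfox3 were under 1 CPM at every age. Mitochondrially encoded RNA took 2.73% to 6.93% of counts up to P1 and 7.78% to 19.2% after it, and TMM factors lay between 0.603 and 1.34. Of the E10.5 libraries, replicate 2 had 32231 CPM (without TMM factors) of the small nuclear RNA Rn7sk, and replicates 1 and 3 had 6113 and 5667. Libraries from E12.5 to P1 had 10768 to 22428 CPM of it, and those of 8W had 6202 to 7011. All 3 E10.5 libraries carried both Y-linked transcripts and Xist, as did 2 of 3 at E12.5 and at E14.5, and no library of a later age did. All P1 libraries carried Y-linked transcripts without Xist, and all 4W and 8W libraries Xist without Y-linked transcripts. In 8W against P1 the libraries thus differ in sex-linked transcripts as well as in age, and within that comparison sex and age cannot be told apart.

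Across the 10 ages all 10 members changed, where 93.6% of all genes did, so that count is near the background. The members differed in size and shape of change, as the plot of levels by library shows. The ratio of the highest to the lowest age mean was 110.3 for Rbfox1, 7.63 for Rbm20, 4.55 for Mbnl2, 4.47 for Ptbp2, 4.41 for Mbnl1, 3.91 for Ptbp1, 2.32 for Rbm24, 2.08 for Celf2, 1.67 for Celf1 and 1.28 for Rbfox2. Rbm20, Mbnl1, Mbnl2 and Rbfox1 were highest at 8W, Celf2 at 4W and Rbm24 at P1, while Celf1 and Ptbp2 were highest at E10.5, Ptbp1 at E12.5 and Rbfox2 at E14.5.

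**Figure D1:**
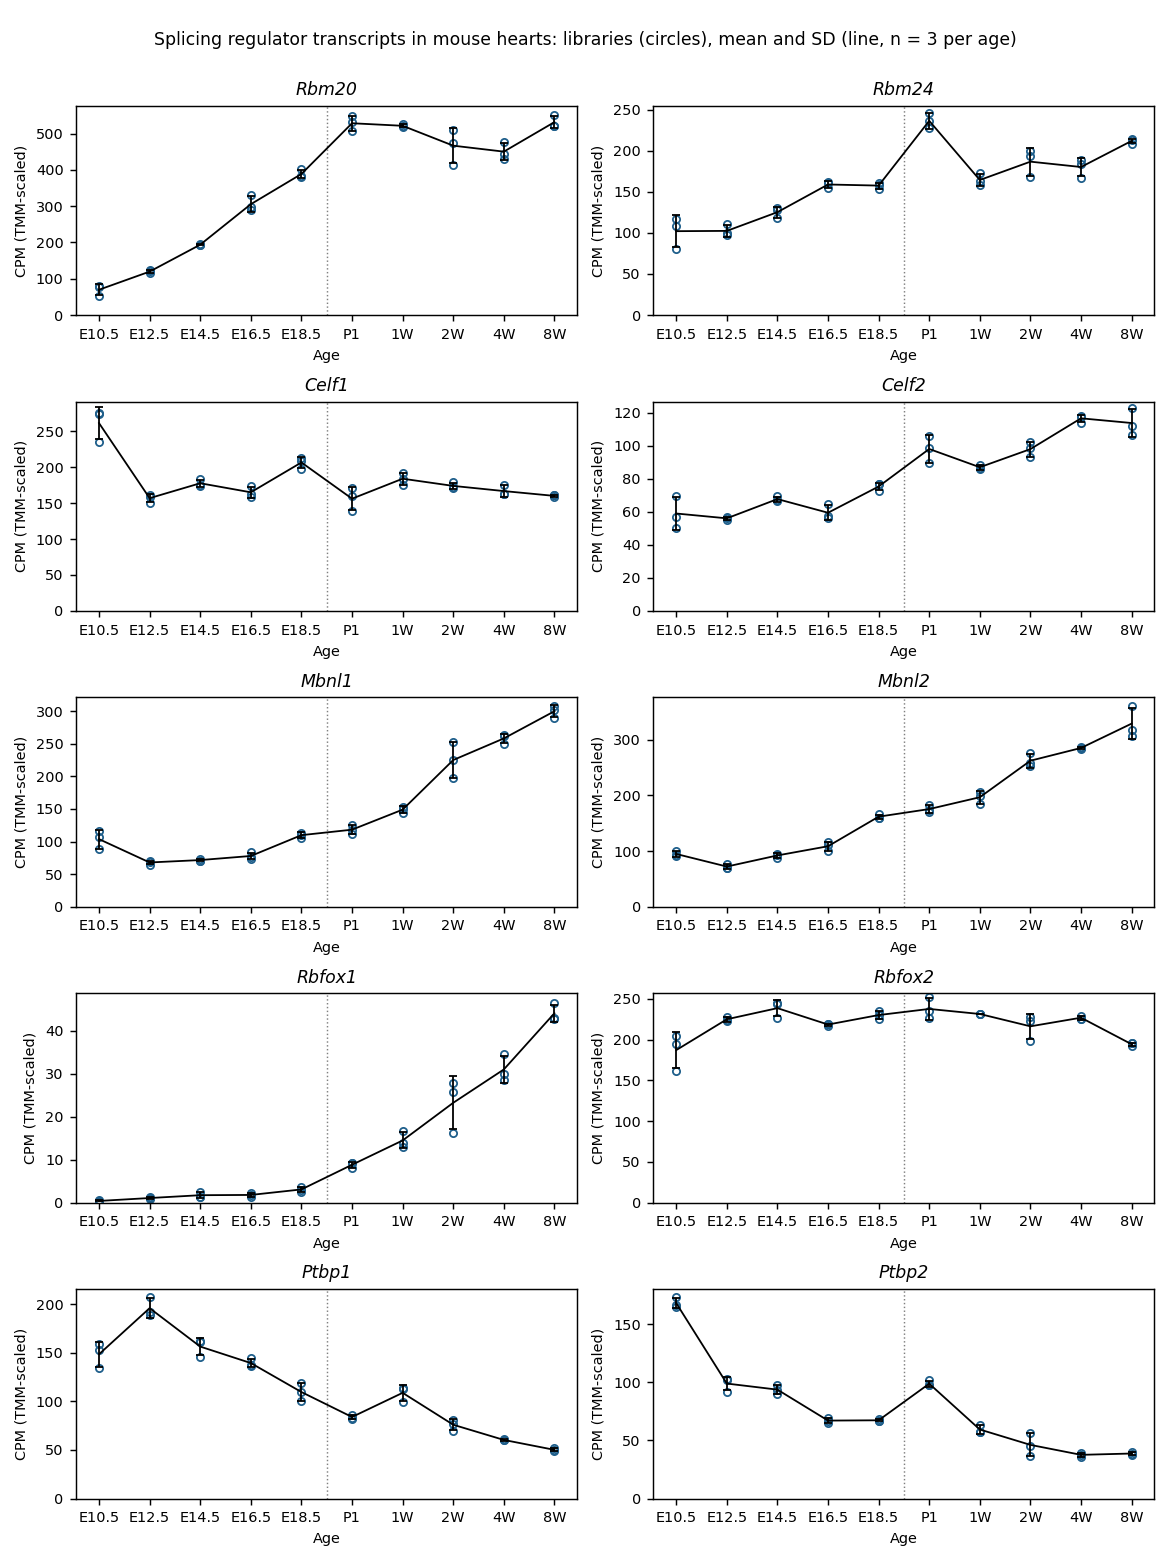
CPM (TMM-scaled, linear axis from 0) of each gene by age, with circles for the 3 libraries of an age and the line and bars for mean and SD. The dotted line marks birth. Rbfox1 rises to 44.1 CPM at 8W, the Ptbp genes end below their embryonic levels, and Rbm24 and Ptbp2 have a peak at P1.

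Levels between genes can be set side by side only per length. Per kilobase of exon (union of all annotated exons), the mean over all libraries was 52.7 CPM for Rbm20 and 46.6 for Rbm24, and lowest for Celf2 (3.21) and Rbfox1 (2.95). With the longest transcript as the length, the values were 73.1 for Rbm20, 52.7 for Rbm24, 9.39 for Celf2 and 4.24 for Rbfox1. Rbm20 and Rbm24 thus led, and Rbfox1 came last, by either length. The values between them moved with the length used, for example 7.92 per kilobase of exon and 26.2 per kilobase of longest transcript for Mbnl1, whose annotated exons add up to 18717 bases against 5655 in its longest transcript.

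Rbm20 (GRCm38 chromosome 19, 53677306 to 53867080, plus strand) rose through gestation and then levelled off. Mean CPM was 69.7 ± 15.1 at E10.5, then 119.7 ± 4.18 at E12.5, then 194 ± 2.10 at E14.5, then 305 ± 21.5 at E16.5, then 389 ± 11.9 at E18.5, and after birth 529 ± 21.0 at P1, then 522 ± 3.85 at 1W, then 467 ± 48.3 at 2W, then 450.3 ± 24.0 at 4W, then 532 ± 17.5 at 8W. Before birth no 2 ages overlapped in their libraries, whereas the 5 postnatal ages lay between 415 and 552 CPM. E18.5 hearts had 384, 380.1 and 402 CPM, against 78.0, 52.2 and 78.9 CPM in E10.5 hearts (log2 change 2.48 ± 0.10, edgeR adjusted p = 6.9e-20). The lowest of these, in E10.5 replicate 2, belongs to the library with high Rn7sk, and without it the change was 2.31. P1 stood above E18.5 (0.44 ± 0.10, edgeR adjusted p = 0.00051), and every one of the 5 steps from E10.5 to P1 was called higher. The step to E18.5 was lost without E16.5 replicate 2 (0.31, edgeR adjusted p = 0.057) and with library size alone (0.30, edgeR adjusted p = 0.064). No later step passed, and 8W against P1 gave 0.01 ± 0.10 (edgeR adjusted p = 0.94), or -0.77 with scaling by library size alone (edgeR adjusted p = 6.3e-07).

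Rbm24 (chromosome 13, 46418434 to 46431095, plus strand) had its peak at P1. Its 3 libraries there had 227, 236 and 247 CPM, against 159, 154 and 160.5 CPM at E18.5 (log2 change 0.59 ± 0.09, edgeR adjusted p = 5.1e-06). One week later the gene had 158, 172 and 163 CPM, a log2 change of -0.52 ± 0.09 against P1 (edgeR adjusted p = 3.1e-05). The P1 libraries did not overlap with those of any other age. Earlier, Rbm24 was 158 ± 3.59 CPM at E18.5 against 102 ± 19.3 at E10.5 (0.63 ± 0.09, edgeR adjusted p = 4.6e-07), with called rises in the steps to E14.5 and E16.5. The step to E14.5 was lost without E12.5 replicate 2 or 3 or E14.5 replicate 2 or 3. With library size alone both steps were lost (0.28 with edgeR adjusted p = 0.066 for E14.5, 0.19 with 0.19 for E16.5). At 8W it stood at 212 ± 2.81 CPM, and 8W against P1 did not pass (-0.16 ± 0.09, edgeR adjusted p = 0.13). That comparison passed as lower with library size alone (-0.93, edgeR adjusted p = 2.8e-09), with upper quartile factors (-0.35, 0.00097), with only the 2 ages in the fit (-0.18, 0.025) and without E10.5 replicate 2 (-0.16, 0.038).

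Mbnl1 (chromosome 3, 60472830 to 60629750, plus strand) and Mbnl2 (chromosome 14, 120275669 to 120431697, plus strand) encode the proteins that CUG repeats sequester in myotonic dystrophy. Both were lowest at E12.5 and highest at 8W. Mbnl1 had 290.3, 308 and 302 CPM in 8W hearts, against 118, 112 and 125 CPM in P1 hearts (log2 change 1.34 ± 0.09, edgeR adjusted p = 4e-15). Mbnl2 had 307, 361 and 318 CPM at 8W, against 174, 182 and 169.9 CPM at P1 (0.91 ± 0.07, 2.2e-12). Neither pair of groups overlapped. With library size alone the change was 0.57 for Mbnl1 (edgeR adjusted p = 6.2e-06) and 0.13 for Mbnl2 (edgeR adjusted p = 0.14), so the call of Mbnl2 depends on the scaling.

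Before birth, the rise of E18.5 over E10.5 passed for Mbnl2 and not for Mbnl1. Mean Mbnl1 levels were 104 ± 14.4 CPM at E10.5, 68.0 ± 2.96 at E12.5, 77.9 ± 4.89 at E16.5 and 109.9 ± 4.58 at E18.5, so that E18.5 against E10.5 did not pass (0.08 ± 0.08, edgeR adjusted p = 0.41). Its sign turned with library size alone (-0.086) and without E10.5 replicate 2 (-0.0205). Mbnl2 was 94.7 ± 5.24 CPM at E10.5, 72.2 ± 4.28 at E12.5, 109 ± 8.40 at E16.5 and 162 ± 3.81 at E18.5, and rose over the interval (0.77 ± 0.07, edgeR adjusted p = 9.8e-11). Across birth neither passed, with 0.11 ± 0.08 (edgeR adjusted p = 0.35) for Mbnl1 and 0.12 ± 0.07 (0.23) for Mbnl2. The steps with called rises of both genes were E18.5 against E16.5 (0.50 ± 0.09 for Mbnl1 and 0.57 ± 0.07 for Mbnl2) and 2W against 1W (0.60 ± 0.08 and 0.41 ± 0.07).

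As a share of the summed counts of both genes, which needs no scaling between libraries, Mbnl2 made up 47.9% ± 3.05 at E10.5, 56.2% ± 0.948 at E14.5, 59.7% ± 2.23 at P1, later 53.9% ± 1.97 at 2W and finally 52.2% ± 1.53 at 8W. Shares of counts, here and below, are not divided by length, so they compare ages and do not rank the paralogs. The mean share of Mbnl2 was thus highest at P1 and lower at the later ages. It differed between the 10 ages (permutation test of the F ratio over 30 libraries with 100000 resamples, adjusted over 4 pairs, p = 1e-05, the smallest it can give). Mbnl2 has a single RefSeq start, and the sequence around it (GRCm38.p6, chr14:120275419-120275718, plus strand) is shown with CCAAT or GGGCGG on either strand in capitals, for comparison with Ptbp1 below, a member that fell.
Mbnl2 promoter: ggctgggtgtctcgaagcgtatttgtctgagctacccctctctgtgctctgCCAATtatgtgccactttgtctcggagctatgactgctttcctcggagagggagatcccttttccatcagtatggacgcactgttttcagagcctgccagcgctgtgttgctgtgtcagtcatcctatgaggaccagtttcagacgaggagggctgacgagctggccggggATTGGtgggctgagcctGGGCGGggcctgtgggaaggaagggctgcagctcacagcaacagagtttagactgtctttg
The window holds 10 CpG pairs and 2 CCAAT matches and 1 GGGCGG match, on both strands together. CCAAT was found in 37.4% and GGGCGG in 35.7% of 32851 RefSeq promoter windows of 300 bases (250 before to 50 after the start), so either match is common.

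Celf1 (chromosome 2, 90940382 to 91019497, plus strand) fell at E12.5 and stayed below its E10.5 level at every later age. Mean CPM was 262 ± 22.6 at E10.5, then 157 ± 5.91 at E12.5, then 178 ± 5.01 at E14.5, then 165 ± 7.61 at E16.5, then 207 ± 7.91 at E18.5, and after birth 156 ± 16.4 at P1, then 184 ± 8.39 at 1W, then 174 ± 4.44 at 2W, then 167 ± 7.81 at 4W, then 160.2 ± 1.24 at 8W. From E12.5 on, all libraries lay between 138 and 214 CPM. CELF1 protein is known to fall in the mouse heart after birth, and the protein was not analysed here. E12.5 hearts had 159, 150.3 and 161 CPM, against 275, 235 and 274 CPM in E10.5 hearts (-0.74 ± 0.07, edgeR adjusted p = 6.5e-10). Celf1 was lower in E18.5 than in E10.5 hearts (-0.34 ± 0.07, edgeR adjusted p = 0.00018) and lower at P1 than at E18.5 (-0.40 ± 0.07, 5.4e-05). 8W against P1 gave 0.04 ± 0.07 (edgeR adjusted p = 0.69), without P1 replicate 2 -0.043, with upper quartile factors -0.16, and with library size alone -0.74 (edgeR adjusted p = 4.9e-09).

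Celf2 (chromosome 2, 6539694 to 7509563, minus strand) rose across birth, where Celf1 fell. It had 106, 98.5 and 89.7 CPM in P1 hearts, against 72.6, 76.7 and 76.7 CPM in E18.5 hearts (0.38 ± 0.08, edgeR adjusted p = 0.00048). E18.5 against E10.5 gave 0.35 ± 0.08 (0.00049), which did not pass with library size alone (0.19, 0.11). At 8W the gene stood at 114 ± 8.51 CPM, against 98.1 ± 8.24 at P1 (0.21 ± 0.08, edgeR adjusted p = 0.025). This last call was lost with upper quartile factors (0.0199, edgeR adjusted p = 0.85), with only the 2 ages in the fit (0.051), without P1 replicate 3 (0.13) or 8W replicate 2 (0.12), and turned with library size alone (-0.56, edgeR adjusted p = 9e-06). Celf2 is also a gene of lymphocytes. The 5 lymphocyte markers summed to 0.389 to 0.803 CPM at E10.5, 4.23 to 4.91 at E18.5, 4.84 to 6.07 at P1 and 10.4 to 11.3 at 8W, with Cd3e, Cd3g and Cd79a under 1 CPM at every age, and their part in the rise was not tested. The lncRNA gene Gm26565 shares 1961 bases with the exons of Celf2 on the other strand (7.58% of them), and the sources used here do not give the strand setting of the counting.

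The Celf2 share of Celf1 and Celf2 counts was 40.0, 41.6 and 34.4% in P1 libraries, against 25.4, 27.9 and 26.9% in E18.5 libraries. The groups did not overlap. Over all ages the mean share was 18.3% ± 1.66 at E10.5, 26.3% ± 0.832 at E12.5, 26.7% ± 1.29 at E18.5, 38.6% ± 3.74 at P1, then 32.1% ± 0.909 at 1W and later 41.5% ± 1.76 at 8W. It differed between the ages (adjusted p = 1e-05 in the permutation test, which can give no smaller value).

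The microRNA miR-23 is known from mouse heart to lower CELF1 and CELF2 protein, so its matches in the 3′ UTRs are shown. The mature sequence (RefSeq, GRCm38.p6, chr8:84208563-84208583, plus strand) has its seed, bases 2 to 8, in capitals, and the sites have in capitals the stretch AATGTGA, which pairs with the seed.
mmu-miR-23a-3p: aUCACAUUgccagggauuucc
Celf1 3′ UTR bases 2015 to 2021: ggattttgtagaatccagAATGTGAttg
Celf1 3′ UTR bases 3991 to 3997: ctacagtctccacagcaaAATGTGAtgc
Celf1 3′ UTR bases 4818 to 4824: gtcttggggacttggaagAATGTGAata
Celf1 3′ UTR bases 5637 to 5643: aatgtaaagtgatttcacAATGTGAaga
Celf2 3′ UTR bases 340 to 346: agtaaatgacatcttgagAATGTGAaag
Celf2 3′ UTR bases 1605 to 1611: tatgaattctgggaagtcAATGTGAaaa
Celf2 3′ UTR bases 2433 to 2439: tgtgtttgtgttcagcaaAATGTGAtgt
Celf2 3′ UTR bases 3613 to 3619: tgatttaatgtgtgtgtgAATGTGAtag
Celf2 3′ UTR bases 7253 to 7259: ggatttgtgtgcaaagtgAATGTGAttc
The longest annotated 3′ UTR (GENCODE M21) of Celf1 (6132 bases) held 4 such matches and that of Celf2 (7381 bases) 5. Of the other members, Mbnl1 held 1 in 3395 bases and the remaining 7 none, in 1190 to 5172 bases. A match was present in 15.4% of 20644 genes with a 3′ UTR of at least 50 bases, and long UTRs have more room for one. The matches are a description of sequence, and microRNAs were not analysed here.

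Rbfox1 (chromosome 16, 5885355 to 7411526, plus strand), known from brain, heart and skeletal muscle, had the widest range of the members. Mean CPM was 0.400 ± 0.123 at E10.5, then 1.08 ± 0.172 at E12.5, then 1.74 ± 0.675 at E14.5, then 1.80 ± 0.393 at E16.5, then 3.08 ± 0.578 at E18.5, and after birth 8.81 ± 0.674 at P1, then 14.5 ± 1.87 at 1W, then 23.2 ± 6.16 at 2W, then 31.0 ± 3.20 at 4W, then 44.1 ± 2.01 at 8W. In E10.5 libraries it had 0.420, 0.268 and 0.511 CPM, which rests on 9 to 21 counts a library. E18.5 hearts had 2.55, 3.69 and 2.99 CPM (log2 change against E10.5 2.93 ± 0.29, edgeR adjusted p = 4.5e-10). P1 hearts had 8.04, 9.12 and 9.28 CPM, above every E18.5 library (1.50 ± 0.20, edgeR adjusted p = 6.2e-07). 8W hearts had 43.0, 46.4 and 42.8 CPM, again without overlap with P1 (2.32 ± 0.18, edgeR adjusted p = 3.5e-12). The summed neuron markers were 12.5 to 14.5 CPM at E10.5, 3.97 to 4.66 at E16.5, 8.05 to 14.0 at E18.5, 7.51 to 7.72 at P1 and 4.16 to 6.66 at 8W. They were thus higher at E18.5 than at E16.5, a step in which Rbfox1 rose too, and lower at 8W than at P1, where Rbfox1 was higher. Their part in the rises of Rbfox1 was not tested.

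Rbfox1 was called higher in 7 of the 9 steps between neighbouring ages. The step E14.5 against E12.5 (0.69 ± 0.25, edgeR adjusted p = 0.049) was close to the threshold, and was 0.33 without E14.5 replicate 3 (edgeR adjusted p = 0.44). It was lost in 22 of 40 alternatives, libraries left out included. The step E18.5 against E16.5 (0.79 ± 0.23) was lost without E16.5 replicate 3 or E18.5 replicate 2. The step 8W against 4W (0.51 ± 0.17) was lost without any of 4W replicates 1 and 2 or the 8W libraries, with library size alone (0.35, edgeR adjusted p = 0.15) and with upper quartile factors (0.46, edgeR adjusted p = 0.061). In 2W against 1W (0.68 ± 0.18, edgeR adjusted p = 0.0035) the libraries overlapped, and with library size alone the call was lost (0.397, edgeR adjusted p = 0.076). The rises of E18.5 over E10.5, P1 over E18.5 and 8W over P1 held with every alternative and every library left out. The last was 1.55 with library size alone.

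Rbfox2 (chromosome 15, 77078990 to 77307004, minus strand) is the broadly expressed paralog and had the lowest ratio between ages among the members. Its libraries ranged from 162 to 252 CPM. E18.5 hearts had 235, 225 and 231 CPM, against 195, 162 and 204 CPM in E10.5 hearts (0.30 ± 0.07, edgeR adjusted p = 0.00061, or 0.13 with adjusted p = 0.21 for library size alone). The lowest library was again E10.5 replicate 2. Across birth it did not pass (0.05 ± 0.07, edgeR adjusted p = 0.65, or -0.068 with library size alone and -0.013 without P1 replicate 3). At 8W it was lower than at P1, with 196, 195 and 192 CPM in 8W hearts, against 235, 226 and 252 CPM in P1 hearts (-0.29 ± 0.07, edgeR adjusted p = 0.00078). The change was -0.49 with upper quartile factors and -1.06 with library size alone.

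The Rbfox1 share of Rbfox1 and Rbfox2 counts was highest at 8W. It was 0.210% ± 0.0427 at E10.5, 0.731% ± 0.317 at E14.5, 1.32% ± 0.273 at E18.5, 3.58% ± 0.282 at P1, later 9.59% ± 1.79 at 2W and finally 18.5% ± 0.621 at 8W. At every age Rbfox2 held most of the counts of the pair. The share differed between the ages (adjusted p = 1e-05 in the permutation test, which can give no smaller value), and the plot of paralog shares gives it for every library.

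**Figure D2:**
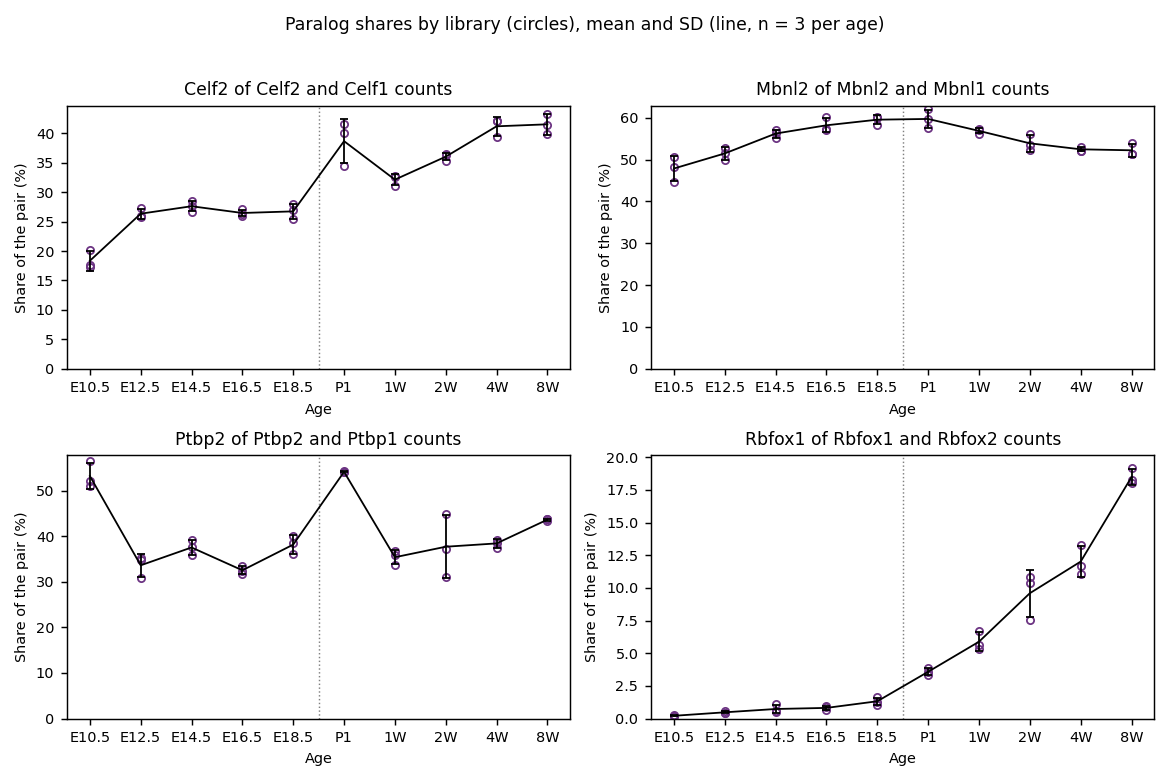
Share of the summed counts of each paralog pair (percent, axis from 0) by age, with circles for libraries and the line and bars for mean and SD (n = 3). The Ptbp2 share is near 54% at P1, above E18.5 and 1W, and the Rbfox1 share climbs to 18.5% ± 0.621 at 8W.

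Ptbp1 (chromosome 10, 79854427 to 79864771, plus strand) encodes the PTB repressor of most non-neuronal cells and fell with age. E18.5 hearts had 119, 109.6 and 100.2 CPM, against 134, 159 and 153 CPM in E10.5 hearts (-0.44 ± 0.08, edgeR adjusted p = 8.7e-06). P1 hearts had 82.3, 83.0 and 86.4 CPM, below every E18.5 library (-0.39 ± 0.08, 0.00016). 8W hearts had 51.9, 49.7 and 48.7 CPM, below every P1 library (-0.74 ± 0.08, edgeR adjusted p = 6.8e-10, or -1.52 with library size alone). The course was not even, since Ptbp1 rose at E12.5 (0.40 ± 0.08, edgeR adjusted p = 4.5e-05) and again at 1W, with 98.9, 114 and 113 CPM there (0.37 ± 0.08 against P1, 0.00027). Proliferation markers (Mki67, Top2a, Ccnb1, Cdk1 and Bub1) summed to 1142 to 1266 CPM at E10.5 and 713 to 738 at E12.5, lower where Ptbp1 rose. At birth and after it they moved with Ptbp1, from 624 to 679.8 CPM at E18.5 to 149.6 to 196 at P1. They then summed to 312 to 386 CPM at 1W and 11.4 to 13.7 at 8W. Their part in the changes of Ptbp1 was not tested. Exons of Plppr3, Gm17134 and E130317F20Rik on the other strand overlap 5.3%, 9.22% and 6.22% of Ptbp1's exon bases. The window around its RefSeq start (GRCm38.p6, chr10:79854182-79854481, plus strand) is marked as for Mbnl2.
Ptbp1 promoter: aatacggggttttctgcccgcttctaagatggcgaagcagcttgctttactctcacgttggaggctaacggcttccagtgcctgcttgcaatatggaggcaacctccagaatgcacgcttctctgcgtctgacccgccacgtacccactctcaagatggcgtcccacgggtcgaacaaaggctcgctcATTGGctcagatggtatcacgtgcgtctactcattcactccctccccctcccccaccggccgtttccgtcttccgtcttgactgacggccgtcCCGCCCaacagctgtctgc
It holds 22 CpG pairs, 1 CCAAT match, 1 GGGCGG match and 1 CACGTG (an E-box, not in capitals, present in 7.15% of promoter windows). Mbnl2, which rose, and Ptbp1, which fell, thus both hold the CCAAT and GGGCGG stretches.

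Ptbp2 (chromosome 3, 119718742 to 119784466, minus strand) is the paralog best known from neurons, and PTBP1 protein is known to lower it by skipping an exon of its transcript. It fell before birth, to 66.9, 68.4 and 66.9 CPM in E18.5 hearts, against 173, 165 and 166 CPM in E10.5 hearts (-1.32 ± 0.09, edgeR adjusted p = 1.6e-14). At P1 it was higher again, with 97.4, 97.5 and 102 CPM (0.55 ± 0.09 against E18.5, 7.1e-06), and by 1W it was down to 57.4, 63.7 and 57.3 CPM (-0.73 ± 0.09 against P1, edgeR adjusted p = 7.5e-08). The P1 libraries overlapped with neither neighbour. By 8W it had 40.4, 38.7 and 37.2 CPM (-1.35 ± 0.09 against P1, edgeR adjusted p = 1.6e-14, or -2.12 with library size alone). Among the 2W libraries it ranged from 36.6 to 56.4 CPM, and the step 4W against 2W (-0.30 ± 0.09) was -0.13 without 2W replicate 3 (edgeR adjusted p = 0.29). Neuron markers summed to 7.51 to 7.72 CPM at P1, against 8.05 to 14.0 CPM at E18.5, and their part in the changes of Ptbp2 was not tested.

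At P1 Ptbp2 rose while Ptbp1 fell, and the share of Ptbp2 in their summed counts was 54.2, 54.0 and 54.1% in P1 libraries, against 36.0, 38.4 and 40.1% in E18.5 libraries. It was 36.7, 35.8 and 33.6% in 1W libraries. The P1 values lay within 0.2 percentage points of each other, above all E18.5 and 1W values. A share as high was otherwise seen at E10.5 (53.2% ± 2.86), while means at the other ages lay between 32.5% ± 0.856 (E16.5) and 43.6% ± 0.237 (8W). The share differed between the ages (adjusted p = 1e-05 in the permutation test, which can give no smaller value). The 2W libraries were the most spread, from 31.1% to 44.8%. Per kilobase of exon, unlike in these shares, Ptbp1 stood above Ptbp2 at P1 (17.7 against 10.8 CPM) and E10.5 (31.3 against 18.3). All P1 libraries had Y-linked transcripts only. E18.5 replicate 2 and 1W replicate 1, the only libraries of that kind at these ages, had Ptbp2 shares of 38.4% and 36.7%. With a term for sex-linked transcripts, chosen after seeing the data, the Ptbp2 change was 0.57 in P1 against E18.5 (edgeR adjusted p = 4.6e-05). It was -0.75 in 1W against P1 (edgeR adjusted p = 1e-06). As P1 had no library of the other kind, the part of sex in its values was not tested.

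Taken by interval, 6 of the 10 members rose and 3 fell in E18.5 against E10.5, where 32.9% of all genes rose and 30.4% fell. The median change of the members was 0.33 and that of all genes 0.00. Rbm20, Rbm24, Celf2, Mbnl2, Rbfox1 and Rbfox2 rose and Celf1, Ptbp1 and Ptbp2 fell. In P1 against E18.5, 5 rose (Rbm20, Rbm24, Celf2, Rbfox1 and Ptbp2) and 2 fell (Celf1 and Ptbp1), where 19.8% and 19% of all genes did, with medians of 0.25 for the members and -0.01 for all genes. In 8W against P1, 4 rose (Celf2, Mbnl1, Mbnl2 and Rbfox1) and 3 fell (Rbfox2, Ptbp1 and Ptbp2), where 31.8% and 35.1% did, with medians of 0.02 and -0.10. The comparisons share the E18.5 and P1 libraries. In 8W against P1, all P1 libraries held Y-linked transcripts without Xist and all 8W libraries the reverse, so sex and age cannot be told apart there. With library size alone the median of all genes shifted by -0.16, -0.11 and -0.77 in the 3 comparisons, and 8W against P1 then had 2 members higher (Mbnl1 and Rbfox1) and 7 lower.

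**Figure D3:**
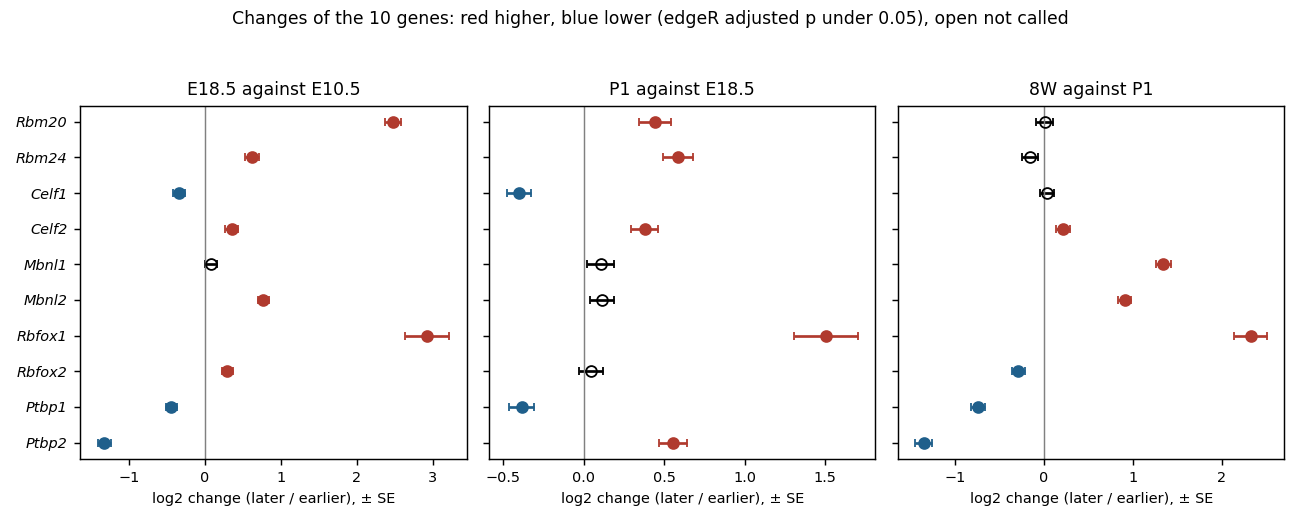
log2 change (later/earlier) with SE of each gene in 3 comparisons, red where called higher, blue where called lower (edgeR adjusted p under 0.05) and open where not called. Rbfox1 lies to the right in all 3, Ptbp1 to the left in all 3, and Ptbp2 changes side at P1.

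Over the 9 steps between neighbouring ages, 33 of 90 member tests were called higher and 17 lower, where 16.7% and 14.5% of all tests were. With library size alone the balance turned, with 20 higher and 27 lower. In E12.5 against E10.5 there were 4 rises (Rbm20, Rbfox1, Rbfox2 and Ptbp1) and 4 falls (Celf1, Mbnl1, Mbnl2 and Ptbp2), beside 31% and 24.4% of all genes. The step E18.5 against E16.5 had 6 rises and 1 fall (Ptbp1), where 13% and 11.2% of all genes rose and fell. Rises and falls numbered 5 and 1 in E14.5 against E12.5 (10.5% and 7.8% of all genes), 3 and 1 in E16.5 against E14.5 (14.1% and 12%), 4 and 2 in 1W against P1 (18.8% and 17%), 3 and 2 in 2W against 1W (15.5% and 14.1%), and 2 and 2 in 8W against 4W (11.8% and 12.1%). Every call in 8W against 4W was lost somewhere among 40 alternatives, libraries left out included. The rise of Mbnl2 was lost in 9 and that of Rbfox1 in 7, the fall of Rbfox2 in 5 and that of Ptbp1 in 1. Fewest members moved in 4W against 2W, with 1 rise (Celf2) and 2 falls (Ptbp1 and Ptbp2), where 15.8% and 13% did. Of these, the rise of Celf2 was lost without 2W replicate 1 or 4W replicate 1 or 2, and the fall of Ptbp2 without 2W replicate 3 or 4W replicate 3. The Celf2 call was also lost with library size alone (0.026, edgeR adjusted p = 0.87) and with upper quartile factors (0.18, edgeR adjusted p = 0.12). That of Ptbp2 was lost with only the 2 ages in the fit (-0.33, edgeR adjusted p = 0.11).

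**Figure D4:**
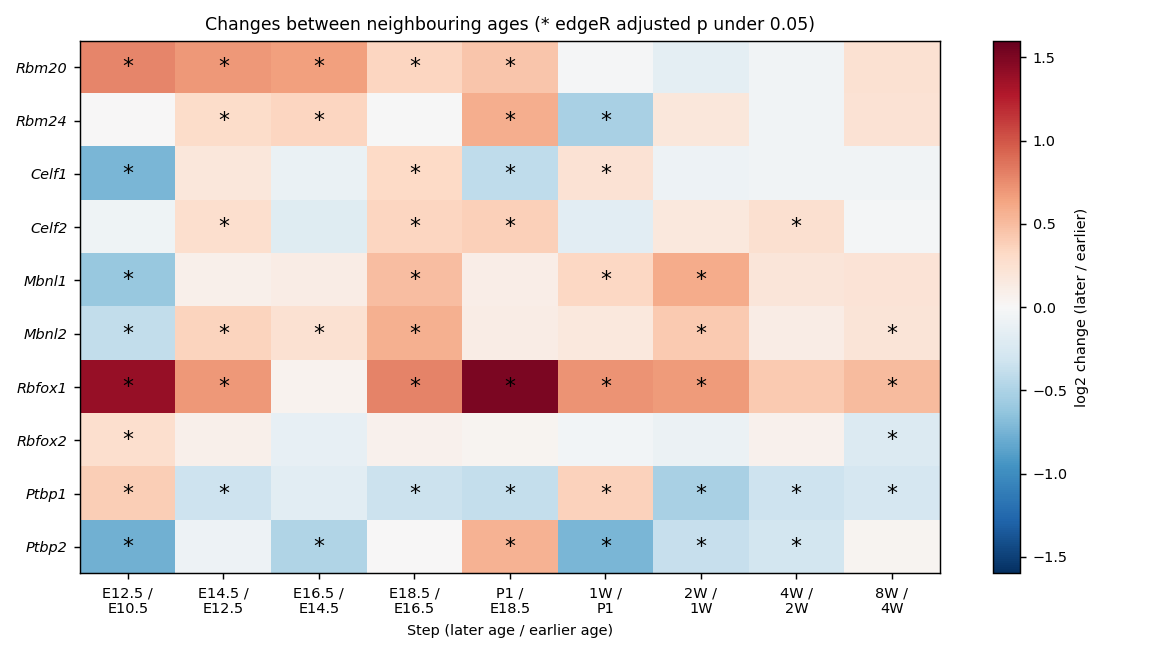
log2 change (later/earlier, colour) of each gene in each of the 9 steps, with an asterisk where edgeR's adjusted p was under 0.05. Rbm20 has its 5 called rises up to P1, while the Mbnl genes have theirs up to E18.5 and after P1.

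Among the members, age means of log2 CPM ran together for Mbnl1 and Mbnl2 (Pearson r = 0.96 over 10 ages), Celf2 and Rbfox1 (0.95), Celf2 and Mbnl2 (0.95) and Rbm20 and Rbm24 (0.93). They ran opposite for Ptbp1 and Mbnl2 (-0.97) and Ptbp1 and Celf2 (-0.96). These points share libraries and scaling, and are a description. Of 10337 other genes with at least 10 CPM at some age, those nearest in course to Rbm20 were Myom2, an M-band gene (r = 0.996), and Nrbp2 (0.995). Rbfox1 was near the mitochondrial carrier gene Slc25a42 (0.994), Mbnl1 nearest to Tmem65 (0.996) and Ghitm (0.995), and Mbnl2 to Cobll1 (0.996) and Mtmr6 (0.995). Ptbp1 was nearest to Gpc2 and Basp1 (0.994 each) and Ptbp2 to Rabl3 (0.991) and the Polycomb gene Rnf2 (0.985). Rbm24 was nearest to Serpinb6a (0.986) and Heca (0.979), Celf2 to Vamp2 (0.984) and Klhl24 (0.982), Celf1 to Mga (0.967) and Rp2 (0.947), and Rbfox2 to Slco2a1 (0.934) and Zfp512b (0.93). These names depend on the measure: of the 20 genes found this way, 9 were again among the nearest by Spearman's rho and 7 by Pearson's r over the 30 libraries, and neither gene of Rbfox2 was by either.

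Of 8 other members of these families, Celf5, Celf6 and Rbfox3 did not pass the filter on low counts. Of the 5 tested, Rbm38, the paralog of Rbm24, rose in 8W against P1 (1.50 ± 0.09, 82.1 CPM at 8W against 29.0 at P1), and Ptbp3 fell (-0.86 ± 0.07, 48.9 against 88.5 CPM). Mbnl3, on the X chromosome, fell in E18.5 against E10.5 (-1.41 ± 0.13) and in P1 against E18.5 (-0.96 ± 0.14). In all, 3 rose and 2 fell in E18.5 against E10.5, none rose and 1 fell across birth, and 1 rose and 4 fell in 8W against P1.

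Beside the counts of other lists stand the shares of all genes, of which 32.9% rose and 30.4% fell in E18.5 against E10.5, 19.8% and 19% in P1 against E18.5, and 31.8% and 35.1% in 8W against P1. General splicing factors of the SR and hnRNP families fell more often than they rose in each of the 3. Proliferation markers fell as well, 4 of 5 in E18.5 against E10.5 and 5 of 5 in each of the others (medians -1.06, -1.65 and -4.11), and their part in the falls was not tested. Of 13 SR protein genes, which favour exon inclusion, 1 rose and 10 fell in E18.5 against E10.5, 2 and 10 in P1 against E18.5, and 2 and 7 in 8W against P1, with median changes of -0.84, -0.45 and -0.51. Srsf7 fell before birth (-1.77 ± 0.10) and across it (-1.28 ± 0.10) and rose after it (0.58 ± 0.11; -0.19 with library size alone), and Srsf5 rose at P1 (0.82 ± 0.11) and fell to 8W (-1.43 ± 0.11). Of 19 hnRNP genes, none rose and 15 fell in E18.5 against E10.5, 1 and 13 in P1 against E18.5, and 2 and 14 in 8W against P1 (medians -0.66, -0.36 and -0.51). Hnrnpa3 (-1.30 ± 0.10) led the falls before birth and Hnrnpa1 (-1.55 ± 0.08) those after P1. Hnrnpc (0.71 ± 0.09) and Hnrnpa2b1 (0.45 ± 0.09) rose to 8W, with -0.064 and -0.32 for library size alone. Hnrnpl rose at P1 (0.42 ± 0.08) and fell to 8W (-1.04 ± 0.08). The core spliceosome list was near the shares of all genes in 8W against P1. Of its 32 genes, 5 rose and 18 fell, 5 rose and 12 fell, and 11 rose and 14 fell in the 3 comparisons (medians -0.30, -0.11 and 0.02), with the small nuclear ribonucleoprotein gene Snrpe at -2.37 ± 0.20 before birth.

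Of 22 other tissue-restricted regulators, 5 rose and 10 fell, 1 rose and 14 fell, and 7 rose and 9 fell in the same comparisons (medians -0.19, -0.47 and -0.25), with those of 8W against P1 again near the shares of all genes. Khdrbs3 rose to E18.5 (0.81 ± 0.10), fell at P1 (-0.76 ± 0.10) and rose to 8W (1.14 ± 0.10). Of 26 genes known to carry exons spliced by the members, 20 rose and 4 fell in E18.5 against E10.5, 8 and 4 in P1 against E18.5, and 19 and 4 in 8W against P1 (medians 0.88, 0.15 and 0.66). The 8 cardiomyocyte markers, of which Ryr2 and Tnnt2 are in this list too, had medians of 2.01, 0.33 and 0.95, and their part in these rises was not tested. Examples were Tnnt2, cardiac troponin T, before birth (2.12 ± 0.10), Cacna1c, a calcium channel gene, at P1 (0.78 ± 0.09), and Trdn, triadin, in 8W against P1 (1.83 ± 0.15), where Fn1, fibronectin, fell (-2.93 ± 0.13). Pkm, pyruvate kinase, whose muscle exon PTB proteins repress, fell at P1 (-0.59 ± 0.09), and rose in E18.5 against E10.5 (0.56 ± 0.09) and in 8W against P1 (1.02 ± 0.09). These are totals over all isoforms of a gene.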

How the data were processed

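Poly(A) RNA of 30 mouse heart samples (10 ages, 3 libraries each) was sequenced. The authors deposited expected counts, 1 value per gene and library, in a single table. Named in the submitters' processing notes are STAR 2.5.3a, fastp 0.18.0, GRCm38 and mm10. The sources used here do not state the counting tool, annotation or strand, so overlapping and antisense genes are uncertain. Values that were not whole (6.94%, tolerance 1e-06) were rounded with the rest. Gene names, GRCm38 coordinates and 3′ UTRs were from GENCODE M21, and promoter and microRNA sequences from RefSeq tables (GRCm38.p6), which matched 8 of 10 members.

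Of 48820 genes, filterByExpr kept 19280. The tests were robust quasi-likelihood F tests of edgeR 4.0.16 (R 4.3.3) with TMM factors, fitted as 10 group means over all 30 libraries and adjusted by Benjamini-Hochberg, with a threshold of 0.05. Shares of summed counts of paralog pairs were tested with 100000 permutations of the libraries over ages (Python 3.11.15, scipy 1.17.1). Named genes of each other list came from the 2 largest called rises and falls in a comparison with at least 10 CPM in the higher group. The genes most like a member were the 2 with the highest Pearson r over 10 age means of log2 CPM (prior count 2). Some genes these rules give are not reported here. Lists and members were chosen with earlier results of these data known. A library was taken to hold Y-linked transcripts from 10 CPM in sum, and Xist from 50 CPM.

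Library totals were 23164934 to 50519452 counts, and they do not alone set the precision. No libraries of an age agreed within sampling noise (lowest chi-square per degree of freedom 6.77). The highest values were those of E10.5 replicate 2 against replicates 1 (172) and 3 (201), while E10.5 replicates 1 and 3 gave 16.0. The highest at any other age was 57.8, for 2W replicates 2 and 3. Same-numbered libraries of different ages correlated by -0.10 to 0.12 in their deviations from age means, so the numbers did not pair them. Scripts were tested on simulated data. Alternatives were RLE, upper quartile and library size scaling, no filter and a stricter one (1 CPM in 3 libraries), mitochondrial and globin genes left out, a replicate block, only the ages compared, DESeq2 1.42.0 and each library left out. A term for sex-linked transcripts was chosen after seeing the data.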

Additional observations from a re-analysis of the deposited data

How the results depend on the processing

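Scaling mattered most. With library size alone, 2 members were higher and 7 lower in 8W against P1, and over the steps 20 member tests were higher and 27 lower. It turned the log2 change of Mbnl1 in E18.5 against E10.5 (-0.086), and of Mbnl1 (-0.0089) and Rbfox2 (-0.068) in P1 against E18.5. After birth, in 8W against P1, it turned Rbm20 (-0.77), Celf1 (-0.74), Celf2 (-0.56), Srsf7 (-0.19), Srsf4 (-0.45), Hnrnpc (-0.064), Hnrnpa2b1 (-0.32), Prpf3 (-0.099) and Prpf19 (-0.13). Upper quartile factors turned Rbm20 (-0.19) and Celf1 (-0.16) in 8W against P1. The change of Rbm20 there, near 0, was also below 0 with the stricter filter (-0.013), the term for sex-linked transcripts (-0.0071), and only the 2 ages in the fit (-0.017). Without 1 library it ranged from -0.015 (P1 replicate 3 left out) to 0.037, and it was -0.012 without 8W replicate 3. Other ranges without 1 library that crossed 0 were -0.0205 to 0.17 for Mbnl1 in E18.5 against E10.5 (lowest without E10.5 replicate 2), -0.013 to 0.080 for Rbfox2 in P1 against E18.5 (without P1 replicate 3) and -0.043 to 0.11 for Celf1 in 8W against P1 (without P1 replicate 2). The cause was not tested.

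Leaving out each library in turn gave 3 to 4 members higher and 3 to 4 lower in 8W against P1, and 29 to 40 higher and 15 to 18 lower over the steps. With the replicate block the steps had 34 higher and 17 lower, against 33 and 17 without it, and no other count of members changed. Of 66 called member tests, 43 were kept by every alternative and left-out library, and 23 were lost by at least 1. All 4 paralog shares kept their call under the alternatives run. Depth limits Rbfox1 before birth, with as few as 9 counts in a library.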

Other observations

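Among other tissue-restricted splicing regulators, Srrm4, which encodes a factor known for splicing neuronal microexons, had the largest rise after birth. It had 28.5, 27.9 and 25.1 CPM in 8W hearts, against 1.25, 1.57 and 1.19 CPM in P1 hearts (log2 change 4.34 ± 0.24, edgeR adjusted p = 3e-16). The groups did not overlap. In between it had 12.5, 15.3 and 8.88 CPM at 2W and 24.1, 23.4 and 22.7 CPM at 4W. Neuron markers summed to 7.51 to 7.72 CPM at P1, 4.34 to 8.97 at 2W, 4.997 to 6.63 at 4W and 4.16 to 6.66 at 8W. Their part in the rise of Srrm4 was not tested. The antisense gene Srrm4os shares 68 exon bases with Srrm4 (0.784% of its exon bases), and the strand setting of the counting is not given in the sources used here.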
